A study of Mus musculus with 12 samples.

Results

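*Krt81*, *Krt83* and *Krt86* encode type II hair keratins, and they were followed by name through both deposited count tables, 3 genes of the 52636 listed in each table. They were chosen by their counts in these libraries, with their response to calcitonin gene-related peptide (CGRP) already known. Their levels and fold changes are therefore given as a description, and no p-value is printed for them. Where it is said whether they were called, this restates part of how they were chosen. RNA was sequenced from adult C57BL/6 J mouse bone marrow neutrophils, which were isolated with an enrichment kit and used fresh, and from bone marrow monocytes kept for 3 days in medium with M-CSF (10 ng/ml), the growth factor that drives monocytes to become macrophages. Each cell type was exposed for 4 h to 1 nM CGRP, a neuropeptide of sensory neurons, or to PBS, the saline control. Each of the 4 groups held 3 libraries. The labels call the cultured cells monocyte/macrophage, and they are called macrophages here. The labels do not tie any library to an animal or a culture, so the spread between libraries may be technical. Total counts were between 2196558 and 3631989 per neutrophil library and between 2002559 and 3477069 per macrophage library. Markers of the labelled cell types were abundant in their own libraries. The 12 neutrophil markers summed to between 167000 and 217000 CPM (counts scaled to the library total) in neutrophils and to between 337 and 441 CPM in macrophages. The 12 macrophage and monocyte markers summed to between 28300 and 32000 CPM in macrophages and to between 1520 and 1740 CPM in neutrophils.

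Keratins are the intermediate filament proteins of epithelia. A filament is built from pairs of 1 type I and 1 type II keratin, and hair keratins are the sulphur-rich members of both types that harden the cortex and cuticle of the hair shaft. Leukocytes are known for a different intermediate filament, vimentin, together with the lamins that line the nucleus of most cells.

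The 3 genes lie within 32.5 kb of chromosome 15 (GRCm38), in the cluster of type II keratin genes. *Krt81* (ENSMUSG00000067615) runs from 101459061 to 101463751 on the minus strand and *Krt83* (ENSMUSG00000067613) from 101485130 to 101491512, also on the minus strand. *Krt86* (ENSMUSG00000067614) lies between them, from 101473478 to 101479986, on the plus strand. No other gene of the GENCODE M21 annotation overlaps any of them. Their coding sequences are close copies. Identity over the alignment was 93.1% between *Krt81* and *Krt83*, 92.9% between *Krt81* and *Krt86* and 91.4% between *Krt83* and *Krt86*. The longest coding run that is identical in all 3 genes holds 134 bases and is printed because reads within it cannot be assigned to 1 gene. It begins at coding base 913 of *Krt81*, 907 of *Krt83* and 913 of *Krt86*, and spans 2 exons in each (chromosome 15, 101460325 to 101460734, 101487174 to 101487583 and 101476863 to 101477271).
Krt81, Krt83 and Krt86: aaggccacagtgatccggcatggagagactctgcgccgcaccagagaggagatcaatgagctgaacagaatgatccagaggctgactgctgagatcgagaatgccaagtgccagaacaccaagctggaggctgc

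The copies part towards the 3′ end, where these libraries, primed at the poly-A tail, place their reads. The last 90 coding bases, stop codon included, are printed to show this. Capitals mark bases of *Krt81* and *Krt86* that are not identical to *Krt83* in the alignment of the whole coding sequences. There are 24 such bases in *Krt81* and 36 in *Krt86*. Each stretch lies in 1 exon (101485384 to 101485473 for *Krt83*, 101459404 to 101459493 for *Krt81* and 101479468 to 101479557 for *Krt86*).
Krt83: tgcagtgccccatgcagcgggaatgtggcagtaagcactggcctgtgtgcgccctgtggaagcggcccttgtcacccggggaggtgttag
Krt81: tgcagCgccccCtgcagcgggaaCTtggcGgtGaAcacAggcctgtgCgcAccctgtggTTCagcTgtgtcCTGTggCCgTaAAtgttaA
Krt86: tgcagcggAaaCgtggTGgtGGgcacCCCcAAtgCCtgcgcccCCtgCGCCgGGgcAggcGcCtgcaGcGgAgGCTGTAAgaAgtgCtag

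Each transcript was divided into all its 31-base sequences, and those that also occur in another annotated gene were counted as shared. Over the coding sequence the shared part was 65.7% for *Krt81*, 48.0% for *Krt83* and 67.5% for *Krt86*. In the 3′ untranslated regions, of 343, 254 and 429 bases, it was 0 in all 3 genes. In the last 500 bases of the transcript it was 0 of 470 sequences for *Krt81* and for *Krt86*, and 20 of 470 (4.3%) for *Krt83*. The partner that shared most of these 20 was *Krt87* (18), a neighbouring type II hair keratin gene with no count in any of the 12 libraries. Of the *Krt83* sequences in this stretch, 2 were shared with *Krt81* and 7 with *Krt86*. The sources do not state the strand setting of the counting or how reads with several positions were treated, so reads that fell further upstream may have been split between the genes or dropped.

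**Figure D1:**
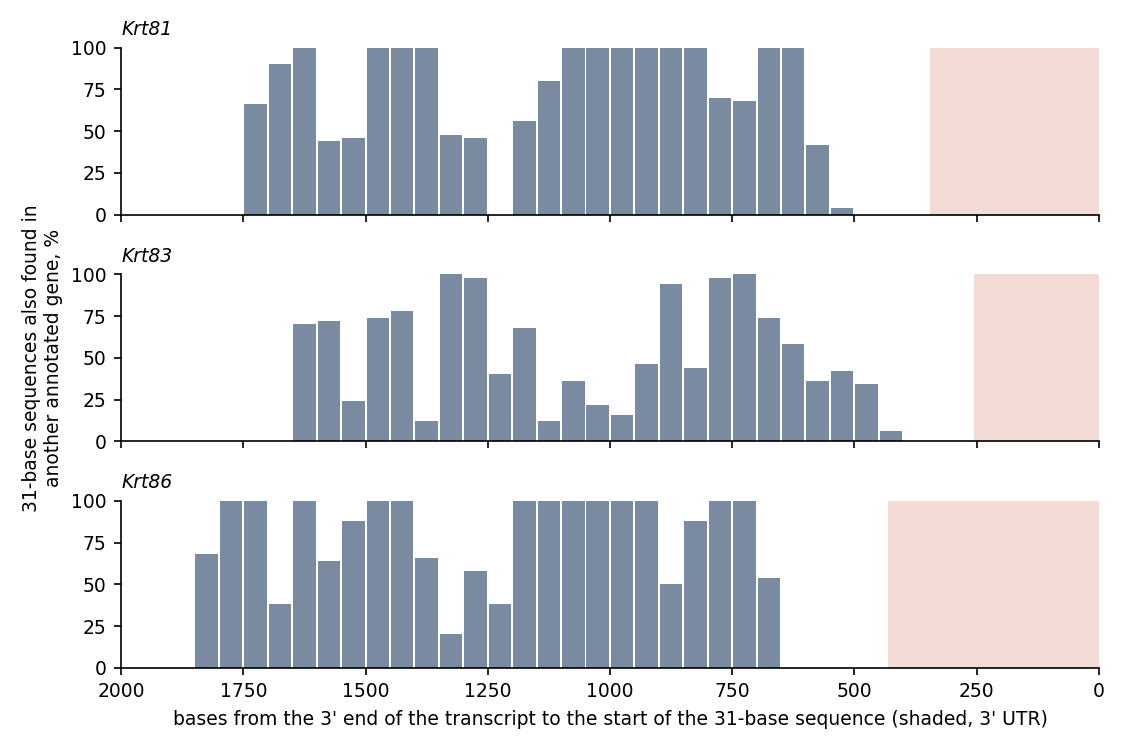
Share of 31-base sequences (%, bins of 50 start positions) that also occur in another annotated gene, along the *Krt81*, *Krt83* and *Krt86* transcripts, by distance in bases from the 3′ end; the 3′ untranslated region is shaded. Bars reach 100% in the body of each transcript and are absent from the last 500 bases of *Krt81* and *Krt86*, while a few shared sequences (20 of 470) reach into this stretch in *Krt83*.

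In neutrophils all 3 genes were counted in each of the 6 libraries, whereas none had a single count in any of the 6 macrophage libraries. With CGRP, *Krt81* and *Krt83* were higher in neutrophils, about 9.86-fold and 3.07-fold, and *Krt86*, which lies between them, was nearly level (1.10-fold).

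*Krt83* carried most of the signal. It had 139, 187 and 171 counts in the PBS libraries of neutrophils and 531, 604 and 317 in the CGRP libraries. Scaled for depth by the trimmed mean of M values (TMM), this was 53.0 ± 9.23 CPM with PBS and 161 ± 20.0 CPM with CGRP (SD, n = 3). The 3 CGRP libraries lay between 138 and 176 CPM, all above the PBS libraries, which lay between 42.7 and 60.6 CPM. The log2 fold change of CGRP against PBS was 1.62 (SE 0.13). In bulk libraries a change in the RNA per cell and a change in the number of cells that hold it cannot be told apart.

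*Krt81* was near the limit of detection with PBS. It had 6, 6 and 5 counts in the PBS libraries and 79, 69 and 29 in the CGRP libraries, with a floor of 3 counts that equals 0.826 to 1.37 CPM, depending on the library. Its level was 1.80 ± 0.0382 CPM with PBS and 19.3 ± 6.23 CPM with CGRP (SD, n = 3), and the groups did not overlap. The log2 fold change was 3.30 (SE 0.42). The CGRP libraries were more spread than the PBS libraries, from 12.6 CPM in replicate 3 to 25 CPM in replicate 1. Floors and intervals given here cover counting error only.

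*Krt86* had 15, 18 and 22 counts with PBS and 18, 21 and 17 with CGRP. Its level was 5.92 ± 1.66 CPM with PBS and 6.41 ± 0.893 CPM with CGRP (SD, n = 3), and the CGRP libraries fell inside the range of the PBS libraries. The log2 fold change was 0.13 (SE 0.31), a difference smaller than the spread between replicates.

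**Figure D2:**
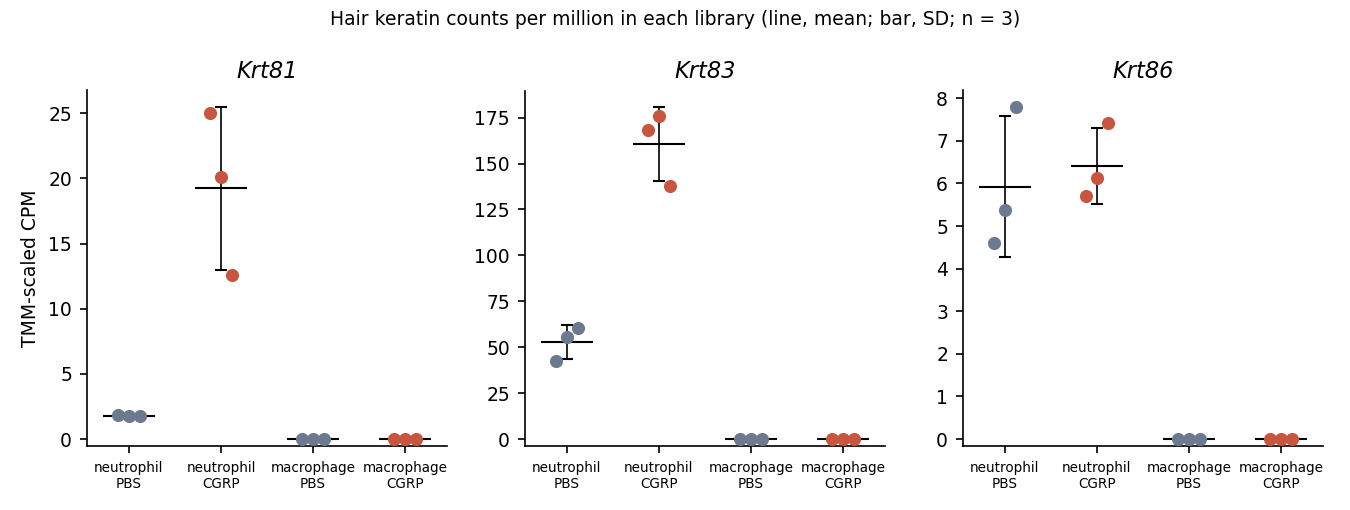
TMM-scaled CPM of *Krt81*, *Krt83* and *Krt86* in each library of the 4 groups (points; line, mean; bar, SD; n = 3), with TMM applied within each cell type. The neutrophil CGRP libraries are above the PBS libraries for *Krt81* and *Krt83*, overlap them for *Krt86*, and every macrophage library is at 0.

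In the fit over all 9819 genes tested in neutrophils (limma-voom, two-sided, Benjamini–Hochberg adjusted p under 0.05), 2 of the 3 hair keratins were among the 148 genes called higher with CGRP, which are 1.51% of the genes tested, and *Krt86* was not called in either direction (1.02% of the genes were called lower). Groups that do not overlap, with CGRP above PBS, were seen in 9.06% of all genes tested. These calls are part of why the genes were chosen. *Krt81* also passed the filter on low counts only through the CGRP libraries, in which it was high. Nothing is therefore read from the calls of the members beside the share of all genes. The log2 fold change of *Krt83* was at or above that of 99.9% of the genes tested, that of *Krt86* at or above 71.8%, and *Krt81* ranked 3 by size among the genes called higher. When each library was left out in turn, the log2 fold change was between 3.10 and 3.52 for *Krt81*, between 1.47 and 1.71 for *Krt83* and between −0.02 and 0.32 for *Krt86*.

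**Figure D3:**
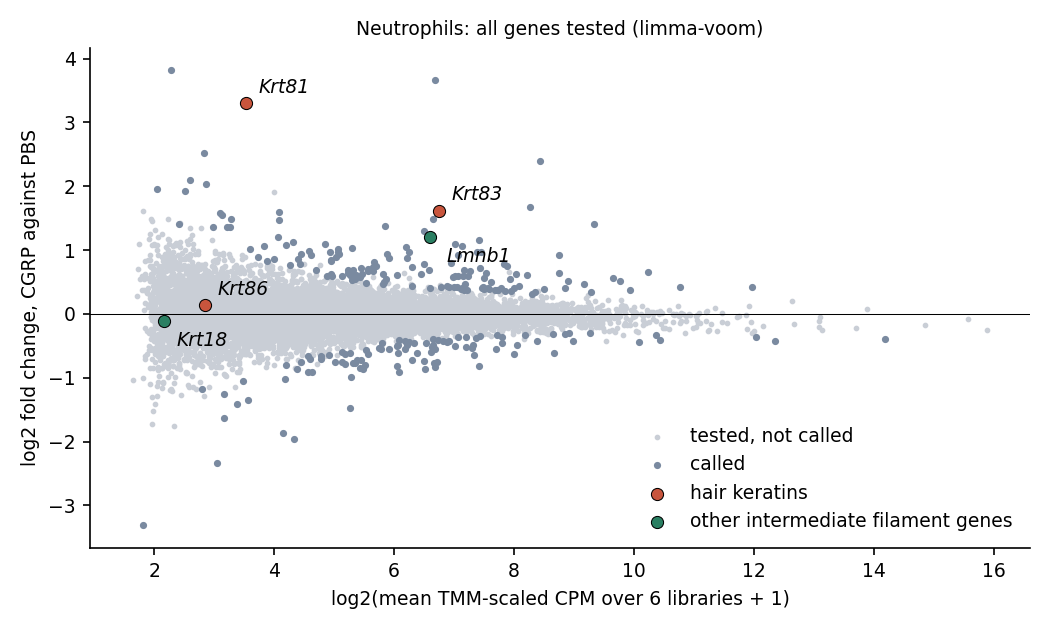
Log2 fold change of CGRP against PBS for all 9819 genes tested in neutrophils, against log2 of the mean TMM-scaled CPM plus 1 over the 6 libraries; called genes are dark, hair keratins red, *Lmnb1* and *Krt18* green. *Krt81* (3.30) stands among low-abundance genes and *Krt83* (1.62) among abundant ones, while *Krt86* (0.13) and *Krt18* (−0.12) lie within the cloud of genes that were not called.

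Levels of the 3 genes differed too. Per kb of annotated exon, *Krt83* was at 28.8 ± 5.01 CPM with PBS, *Krt86* at 3.02 ± 0.847 and *Krt81* at 0.850 ± 0.0180 (SD, n = 3). With CGRP the order of the latter pair changed, with *Krt83* at 87.3 ± 10.8, *Krt81* at 9.09 ± 2.94 and *Krt86* at 3.27 ± 0.455 CPM per kb. No library of one gene overlapped those of its neighbour in either order. The same order held in CPM without division by length, which matters because reads primed at the 3′ end do not grow in number with transcript length. Of the 9815 tested genes with an annotated exon length, 83.7% were at or below *Krt83* per kb with PBS and 93.5% with CGRP. For *Krt81* the share went from 7.97% to 62.9%, and for *Krt86* it was 34.6% and 36.4%. These shares rest on the division by length, which such reads do not follow, and shares in CPM alone are not given.

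The 3 genes did not keep a fixed ratio. For every 100 *Krt83* counts in the same library, *Krt81* had 4.32, 3.21 and 2.92 counts with PBS and 14.9, 11.4 and 9.15 with CGRP. *Krt86* had 10.8, 9.63 and 12.9 with PBS and 3.39, 3.48 and 5.36 with CGRP. The groups did not overlap in either ratio. Both ratios restate the fold changes above, and that of *Krt86* was lower with CGRP because *Krt83*, its denominator, was higher while *Krt86* was nearly level. Exact binomial 95% intervals were wide for the PBS libraries, for example from 1.56 to 9.64 for *Krt81* in replicate 1. When the counts of the 3 genes were summed into 1 row before the fit, the log2 fold change was 1.64, close to that of *Krt83* alone, which made up between 84.6% and 88.6% of the sum.

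**Figure D4:**
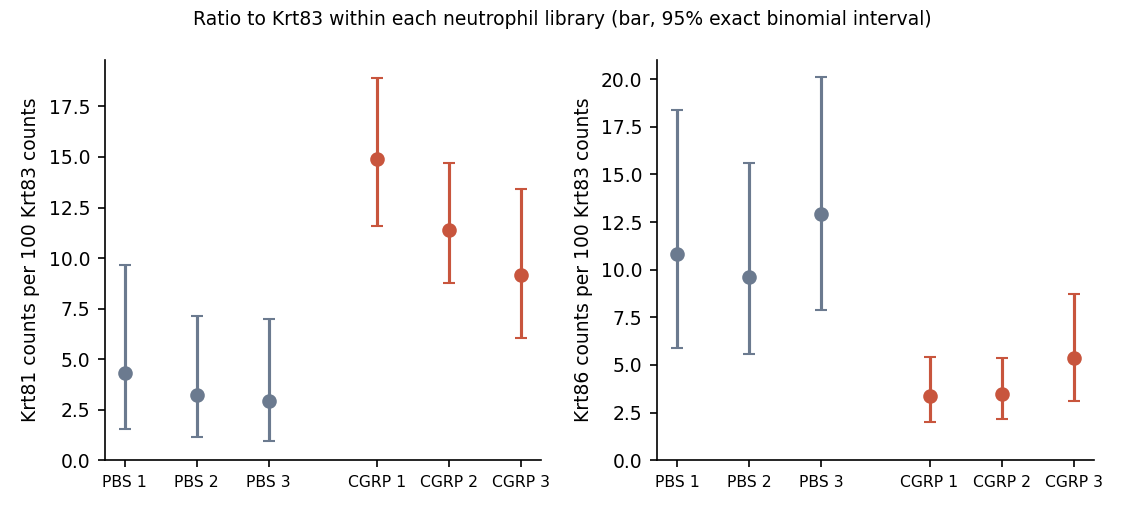
Counts of *Krt81* (left) and *Krt86* (right) per 100 counts of *Krt83* within each neutrophil library, with exact binomial 95% intervals. *Krt81* lies between 2.92 and 4.32 with PBS and between 9.15 and 14.9 with CGRP, and *Krt86* between 9.63 and 12.9 with PBS and between 3.39 and 5.36 with CGRP.

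Macrophages had 0 counts of *Krt81*, *Krt83* and *Krt86* in all 6 libraries, which allows up to between 0.863 and 1.5 CPM per library. The highest such floor was 1.18 CPM among the PBS macrophage libraries and 1.5 CPM among the CGRP libraries, relative to library totals. With PBS, the neutrophil mean was 44.1-fold this floor for *Krt83*, 4.96-fold for *Krt86* and 1.5-fold for *Krt81*. The lowest PBS neutrophil library was at 35.6-fold, 3.84-fold and 1.4-fold. With CGRP, the neutrophil mean was 109-fold the floor for *Krt83*, 13.0-fold for *Krt81* and 4.38-fold for *Krt86*. The lowest CGRP neutrophil library was at 96.3-fold, 8.81-fold and 3.67-fold. These folds do not include the counting error of the neutrophil libraries, which is large for *Krt81* with PBS. No fold change of CGRP against PBS could be given in macrophages, where none of the 3 genes had enough counts to be tested. Of the 9393 genes that were tested there, 698 (7.43%) were called, 3.46% higher and 3.97% lower. A difference of the CGRP response between the cell types is not given for these genes, since against libraries at 0 its fitted size depends on the prior count.

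Few counts fell on the genes around them. GENCODE M21 places 22 genes within 100 kb of the 3 hair keratins, and 14 of them are listed in the count tables. Of the 11 others listed, 8 had no count in neutrophils. These include *Krt87* and *Krt88* on the side of *Krt81*, with start sites 24.9 and 16.0 kb from it, and the hair keratin genes *Krt84* and *Krt82* on the side of *Krt83*. *Krt7*, a keratin of simple glandular epithelia, had 25 counts over the 6 neutrophil libraries. With PBS it had 1, 4 and 4, and with CGRP 8, 4 and 4, too few to test. *Krt80* had 5 counts and *Krt75* 1. In macrophages, 1 count of *Krt80* was the only count in this window.

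**Figure D5:**
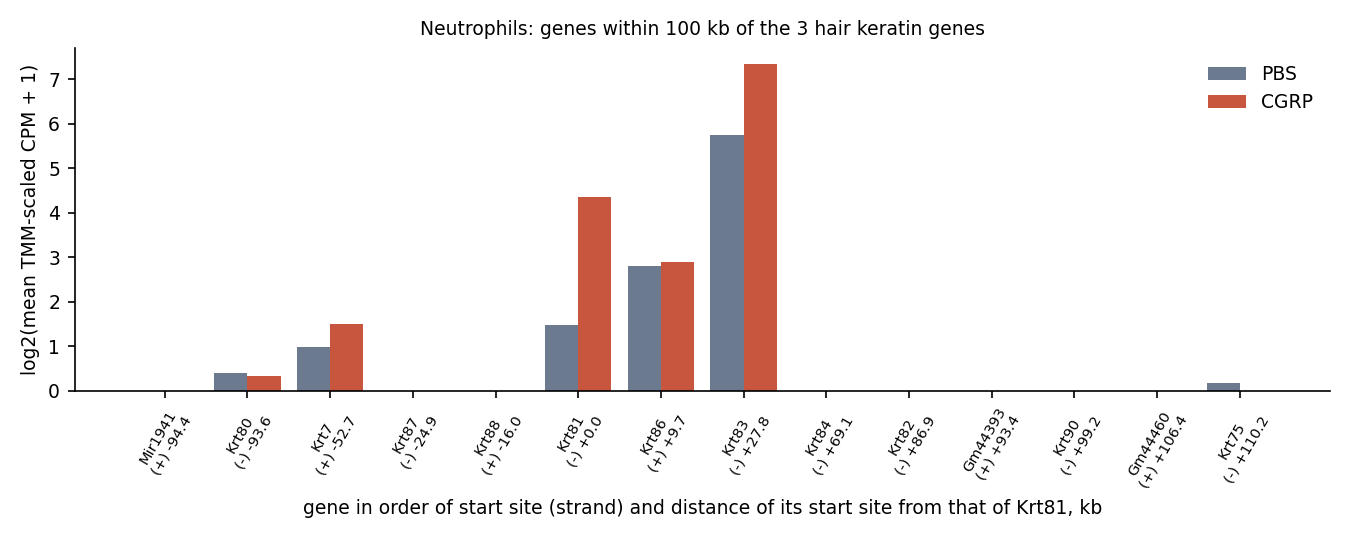
Log2 of the mean TMM-scaled CPM plus 1 in neutrophils with PBS or CGRP, for the 14 genes listed in the tables that lie within 100 kb of the hair keratins, with the strand and the distance in kb of each start site from that of *Krt81*. *Krt81*, *Krt86* and *Krt83* stand side by side with counts, *Krt7* and *Krt80* are at 1.81 CPM or below, and the genes beyond *Krt83* are at or near 0.

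The rest of the keratin family was sparse. The 3 genes took between 76.6% and 87.2% of all counts of the listed keratins in the PBS neutrophil libraries and between 91.7% and 93.5% in the CGRP libraries. The other listed keratins summed to 49, 31 and 40 counts with PBS and 54, 48 and 33 with CGRP, so that the groups overlapped. Of the 7 type II hair keratins listed, 6 were found in the tables, and only *Krt81*, *Krt83* and *Krt86* had counts. Among 9 type I hair keratins, the class from which hair keratin filaments draw their partners, *Krt32* had 2 counts over the 6 neutrophil libraries and the other 8 had none. Of 19 type II epithelial keratins, 7 had counts in neutrophils, led by *Krt8* with 36 over the 6 libraries, and none could be tested. Of 19 type I epithelial keratins, 7 had counts and 1 could be tested. That gene, *Krt18*, the usual partner of *Krt8* in simple epithelia, had 15, 9 and 10 counts with PBS and 15, 8 and 7 with CGRP (log2 fold change −0.12, SE 0.41, adjusted p = 0.951 from limma-voom). *Krt19* had 5, 4 and 3 counts with PBS and 6, 16 and 8 with CGRP and was too low to test. In macrophages, *Krt10* was the only listed keratin that could be tested, with 21, 23 and 6 counts with PBS and 10, 10 and 8 with CGRP (log2 fold change −0.37, SE 0.46, adjusted p = 0.718).

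Among 16 other intermediate filament genes, 4 could be tested in neutrophils, and 1 rose with CGRP while none fell (median log2 fold change 0.09, against 0.001 over all genes tested). The gene that rose was *Lmnb1*, which encodes lamin B1 of the nuclear lamina. It had 194, 201 and 153 counts with PBS and 458, 454 and 281 with CGRP, or 57.9 ± 3.23 and 133 ± 11.3 CPM (SD, n = 3). The log2 fold change was 1.20 (SE 0.11, adjusted p = 6.13e-07 from limma-voom), in a fit where 2.53% of all genes were called in either direction. In macrophages it was 0.22 (SE 0.29, adjusted p = 0.738), and the interaction term for the difference between cell types had an adjusted p of 0.0970, where 2.36% of 10694 genes passed (1.21% with a larger and 1.15% with a smaller log2 fold change in macrophages). *Vim*, the vimentin gene, was at 890 ± 24.9 CPM with PBS and 814 ± 40.2 CPM with CGRP in neutrophils (log2 fold change −0.13, adjusted p = 0.5). *Lmna* (0.29, adjusted p = 0.318) and *Lmnb2* (−0.12, adjusted p = 0.845) did not pass either. In macrophages 6 of the 16 genes could be tested and none was called, where 7.43% of all genes tested were (median log2 fold change −0.22, against 0.005). Of 19 listed keratin partners and plakins, which tie filaments to junctions, 5 could be tested in neutrophils and 4 in macrophages, and none was called in either, where 2.53% and 7.43% of all genes were (medians −0.06 and −0.29). The most abundant was *Plec*, the gene of the linker protein plectin.

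Of 15 listed regulators of hair follicle growth, 6 could be tested in neutrophils and none was called, where 2.53% of all genes tested were (median log2 fold change 0.11). *Hoxc13*, a transcription factor that drives hair keratin genes in the follicle, had 6 counts in 1 PBS library of neutrophils and none in the other 11 libraries, and *Foxn1*, another such factor, had 1 count in all. In macrophages 4 could be tested, and 3 of them rose. *Vdr* and *Runx3* passed the filter on low counts only through the CGRP libraries, in which they were high, so nothing is read from this count beside the 3.46% of all genes called higher. The 3 genes were *Vdr*, the vitamin D receptor gene (log2 fold change 3.37), *Trps1* (1.72, adjusted p = 5.16e-05 from limma-voom) and *Runx3* (2.13). For the same reason no p-value is given for *Vdr* and *Runx3* in macrophages. These are transcription factors that also act in many other tissues. In neutrophils *Vdr* had 4, 4 and 3 counts with PBS and 11, 5 and 9 with CGRP, or 1.16 ± 0.0877 and 2.96 ± 1.32 CPM (SD, n = 3). The groups did not overlap, as in 9.06% of all genes tested in neutrophils with CGRP above PBS, and *Vdr* was too low to test there. There the log2 fold changes of *Trps1* (0.41, adjusted p = 0.384) and *Runx3* (−0.30, adjusted p = 0.492) did not pass.

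Summed markers of skin overlapped between PBS and CGRP. The 15 keratinocyte markers summed to 17.3, 17.3 and 21.3 CPM of the library total in the PBS neutrophil libraries and to 17.7, 16.5 and 22.3 CPM in the CGRP libraries. Of these, 9 had any count, the most abundant was *Sfn* (114 counts over the 6 libraries), the basal keratins *Krt5* and *Krt14* had at most 3 counts in any library, and 6 had none, among them *Krt1*, *Ivl*, *Lor* and *Flg*. Of 16 hair shaft and matrix markers, 15 were found in the tables and 6 had any count in neutrophils. They summed to 13.9, 14.9 and 16.5 CPM with PBS and 11.3, 11.9 and 15.5 CPM with CGRP, most of it from *Selenbp1* (218 counts), a gene that is also counted in macrophages (284). The type I hair keratins *Krt31*, *Krt33a*, *Krt33b*, *Krt34* and *Krt35* were at 0 in all libraries. Of the 12 macrophage and monocyte markers, which summed to between 1590 and 1740 CPM in neutrophil libraries with PBS and between 1520 and 1710 with CGRP, 11 could be tested there, and 1 fell while none rose, where 1.02% of all genes tested were called lower and 1.51% higher. That gene, *Ccr2*, a chemokine receptor gene of monocytes, was at 309 ± 10.2 CPM with PBS and 220 ± 14.4 CPM with CGRP (SD, n = 3; log2 fold change −0.49, SE 0.08, adjusted p = 0.00134 from limma-voom). *Ccr2* also fell with CGRP in the macrophage libraries (−0.81, SE 0.12, adjusted p = 0.00048 from limma-voom), where 3.97% of all genes tested were called lower. *Adgre1*, which encodes F4/80, did not pass in neutrophils (−0.50, SE 0.15, adjusted p = 0.0934). Its groups did not overlap, as in 17.7% of all genes tested there, counting either direction. The part of monocytes and macrophages in the keratin values of the neutrophil libraries was not tested. Summed markers of the other bone marrow cells overlapped between the groups. Erythroid markers summed to between 5890 and 6620 CPM with PBS and between 6110 and 6800 with CGRP, and mast cell and basophil markers to between 990 and 1100 with PBS and between 999 and 1130 with CGRP. B cell markers summed to between 76.8 and 103 CPM with PBS and between 95.1 and 107 with CGRP, T and NK cell markers to between 18.5 and 23.5 and between 14.4 and 21.9, platelet markers to between 152 and 171 and between 133 and 200, and stromal markers to between 74.3 and 97.1 and between 78.6 and 95.1. Which cells of the neutrophil preparation held the keratin transcripts was not tested.

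The genes whose levels were most like those of *Krt81* were ranked by Pearson's r of log2(CPM + 1), as a description. The libraries behind each r share cell type, treatment and depth with one another. Over all 12 libraries and 10688 other genes, the closest were *Ldhc*, the testis lactate dehydrogenase gene (r = 0.977), *Sla2* (0.947), *Lmnb1* (0.940), *Dusp1* (0.937) and *2010005H15Rik* (0.929). This order depended on the measure, since 0 of these 5 genes were among the first 5 with Spearman's rho, 3 with a pseudocount of 0.5 CPM and 2 with 5 CPM. *Ldhc* had 45, 51 and 42 counts in neutrophils with PBS, 615, 591 and 460 with CGRP, and at most 1 in any macrophage library. Over the 6 neutrophil libraries the closest were *Thbs1* (0.997), *Lmnb1* (0.994), *Prdx6* (0.992), *Hdc* (0.992) and *Clec4e* (0.992). *Krt83* ranked 31 in both lists (r = 0.905 and 0.977). *Krt86* ranked 465 over the 12 libraries (r = 0.825) and 4284 over the neutrophil libraries (r = 0.169).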

How the data were processed

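The deposited values are raw counts per gene, not normalized, in 1 table per cell type. To make them, the authors used the nfCore/RNAseq pipeline with unique molecular identifiers, STAR on GRCm38 and featureCounts. The annotation release and strand setting are not given in the sources used here. Columns were matched to samples by name. Positions and transcripts came from GENCODE M21 of GRCm38, which holds 52489 of the 52636 gene identifiers. Each cell type was fitted on its own 6 libraries with filterByExpr, TMM and limma-voom (threshold 0.05), as the study's methods name limma-voom with TMM, and the interaction in 1 fit over the 12 libraries. A gene was called at an adjusted p under 0.05. Members and gene lists were chosen with earlier results of these data known. Genes were named by a rule (the members, neighbours within 100 kb, genes that share 31-base sequences with a member, listed genes with at least 10 counts over the 12 libraries, the 5 genes most like *Krt81*), and *Krt32*, *Krt75*, *Krt80*, *Hoxc13*, *Foxn1*, *Krt5*, *Krt14* and markers at 0 were named for their low counts after these were seen. Genes ranked for likeness had at least 10 counts in at least 3 libraries. The fits within a cell type were repeated with DESeq2, with edgeR's quasi-likelihood test, and with other size factors, other filters, thinning, library weights, the replicate number as a block or 1 library left out. The interaction count was repeated with DESeq2, edgeR, other size factors, library totals and the block. The steps were tested on simulated data. Versions were 4.0.16 for edgeR, 3.58.1 for limma and 1.42.0 for DESeq2 under R 4.3.3. Sequences and plots were made in Python 3.11.15 (matplotlib 3.10.9, pandas 2.3.3).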

Additional observations from a re-analysis of the deposited data

Results flagged for a closer look

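The effect of CGRP differed between the cell types for 2 of the listed hair follicle regulators in the limma-voom fit over the 12 libraries. For *Trps1* the log2 fold change was larger in macrophages than in neutrophils by 1.32 (adjusted p = 0.0139 for the interaction term). The 3 macrophage PBS libraries had 41, 48 and 47 counts and the CGRP libraries 131, 131 and 105, and neutrophils had 64, 89 and 75 with PBS and 80, 106 and 103 with CGRP. For *Runx3* the difference was 2.44 (adjusted p = 1.46e-03), with 7, 9 and 4 counts with PBS and 24, 26 and 24 with CGRP in macrophages, and 75, 79 and 80 with PBS and 66, 64 and 48 with CGRP in neutrophils. For *Vdr*, another listed regulator, the log2 fold change was larger in macrophages by 2.30, which did not pass the threshold. In that fit 252 of 10694 genes (2.36%) passed the threshold.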

How the results depend on the processing

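The log2 fold changes of *Krt83* and *Krt86* in neutrophils moved by less than 1 SD between replicates under each of 10 alternatives (from 1.60 to 1.68 and from 0.11 to 0.37). That of *Krt81* did so under 9, and became 2.84 after thinning every library to 2002559 counts, the smallest total. *Krt81* and *Krt83* were called in all 17 settings run, leave-one-out fits included, and *Krt86* in 0. These calls reuse the values by which the genes were chosen, so nothing about stability is read from them. In the main fit *Krt81* also passed the filter on low counts only through the CGRP libraries. The number of genes called in neutrophils (248) ranged from 183 to 307 under 9 alternatives. Leaving out 1 library gave 138 to 234, with 138 without PBS replicate 1, 138 without PBS replicate 2 and 153 without CGRP replicate 2. In macrophages (698) it was 1406 with voomWithQualityWeights, and leaving out 1 library gave 347 to 765 (347 without PBS replicate 1, 348 without CGRP replicate 2, 439 without CGRP replicate 3). The cause of these shifts was not tested. The interaction terms of single genes were not recomputed under the alternatives. Of the 5 genes most like *Krt81* over the 12 libraries, 0 were among the first 5 with Spearman's rho, 3 with a pseudocount of 0.5 CPM and 2 with 5 CPM. Correlations of same-numbered libraries' deviations were −0.0139 to 0.141 for neutrophils and −0.185 to 0.282 for macrophages. Those of libraries with different numbers were −0.139 to 0.114 and −0.412 to 0.395. The ranges overlapped, so the numbers were not taken to pair the samples. Whether a replicate number stood for a shared batch was not tested. In fits with a replicate block, 266 genes were called in neutrophils, 915 in macrophages and 255 for the interaction, and the log2 fold changes were 3.32 for *Krt81*, 1.61 for *Krt83* and 0.13 for *Krt86*. *Lmnb1* in neutrophils and *Trps1* in macrophages passed the threshold in each of 9 alternatives and 6 fits that left out a library. *Vdr* and *Runx3* passed the filter in macrophages only through the CGRP libraries, so only log2 fold changes are given for them. With 1 library left out these were 2.81 to 3.70 for *Vdr* and 1.95 to 2.32 for *Runx3*. Under the 9 alternatives they were 3.29 to 3.81 and 2.07 to 2.35. Depth limits *Krt81* with PBS (5 or 6 counts a library) and the hair keratins in macrophages, where 0 counts allow up to 0.863 to 1.5 CPM.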
